A study of Mus musculus with 16 samples.

Results

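The genes of major histocompatibility complex (MHC) class II antigen presentation were followed in leukemic cells and in the surrounding marrow cells of wild-type (WT) and IL-6 knockout (IL-6 KO) mice. The 10 genes were chosen by symbol: Cd74, H2-Aa, H2-Ab1, H2-Eb1, H2-DMa, H2-DMb1, H2-DMb2, H2-Oa, H2-Ob and Ciita. All 10 were found among the 15080 genes of the tumor table and 9 among the 13344 genes of the stroma table, out of 16612 genes in either table. H2-Oa in stroma was not analysed here.

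The leukemia was a BCR-ABL+, Arf-/- B-cell acute lymphoblastic leukemia (B-ALL) line that carries mCherry and luciferase from retroviral vectors. A tail vein injection of 500000 cells was given to C57BL/6J mice, WT or IL-6 KO, aged 6 to 8 weeks, and none of the animals in these groups received chemotherapy. On day 8 the marrow of femur and tibia was sorted into mCherry+ cells (tumor) and mCherry- cells (stroma), and the RNA of each fraction was sequenced in 4 libraries per genotype, 16 in all. The genotype is that of the host: the injected cells have the same genotype in every group. Stroma here means every live cell without mCherry and is mostly hematopoietic. Neither the pairing of tumor and stroma by animal nor the number of mice behind a library is given in the labels, so the p-values measure the spread between libraries, which may be technical. Il6 itself was not analysed here, and the host genotype was taken from the labels.

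MHC class II molecules are heterodimers of an alpha and a beta chain that display peptides from endocytosed and lysosomal proteins to CD4+ T cells. The invariant chain, encoded by Cd74, holds the new dimer and guides it to the endosome, where proteases trim it to a short peptide that H2-DM exchanges for the antigen and H2-O restrains this exchange. Ciita is the main coactivator of class II gene transcription. It does not bind DNA itself but joins RFX, CREB and NF-Y proteins bound to the X and Y boxes of the promoters. Dendritic cells, macrophages and B cells carry class II at high level, and mouse B-lineage cells acquire it as they mature. C57BL/6 mice have no functional alpha chain for the I-E molecule, so H2-Eb1 encodes a beta chain without its usual partner.

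On the GRCm38 assembly, 8 of the 10 genes lie within 224 kb of chromosome 17, from H2-Oa (start 34092340) to H2-Eb1 (end 34316674). Ciita is on chromosome 16 (10480059 to 10528418), and the position of Cd74, which lies elsewhere, is given with its values. The 62-base stretches shown next are the start-site-proximal sequences around the Y box. They are shown because Ciita acts on class II promoters through proteins bound at X and Y boxes. All 4 stretches hold the Y box letters, and all but H2-Aa the X box letters. They were read from the RefSeq promoter windows (GRCm38.p6, 250 bases before to 50 after a start site), which held 7 of the genes. The Y box was searched as TGATTGG and a part of the X box as AACNNATG, on both strands, and capitals mark these letters. The motifs do not overlap each other. The letters were chosen with the sequences in view, so the matches are a description. The windows shown are those with a Y box that touch no annotated exon, in the order H2-Aa (chr17:34287862-34287923, minus strand), H2-Eb1 (chr17:34305756-34305817, plus strand), H2-DMb2 (chr17:34145107-34145168, plus strand, in an intron of the longer H2-DMb2 models) and H2-Ob (chr17:34238796-34238857, plus strand).
H2-Aa: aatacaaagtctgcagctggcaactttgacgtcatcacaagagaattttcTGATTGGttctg
H2-Eb1: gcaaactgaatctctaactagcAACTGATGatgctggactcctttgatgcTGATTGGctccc
H2-DMb2: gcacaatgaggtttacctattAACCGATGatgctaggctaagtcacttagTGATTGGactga
H2-Ob: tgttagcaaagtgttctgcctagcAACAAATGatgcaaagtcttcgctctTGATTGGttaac

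A Y box stood in the promoter windows of 6 of the 7 genes (H2-Aa, H2-Eb1, H2-DMb1, H2-DMb2, H2-Oa and H2-Ob) and in 7.82% of all 32851 promoters. The X box letters stood in 8.86% of all promoters. Of the 7 genes, 4 had both (H2-Eb1, H2-DMb1, H2-DMb2 and H2-Ob), against 0.785% of all promoters. In these 4 the X part started 26 to 29 bases before the Y box. H2-Aa and H2-Oa had the Y box without the X letters, and H2-DMa had neither in its windows.

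Class II transcripts were read against the whole transcriptome first. To compare genes with each other, each normalized count was divided by the summed exon length of the gene, and the result was scaled so that the 10534 protein-coding genes listed in both tables add up to 1000000 in each library. This is called the length-scaled level. In WT tumor Cd74 had the highest level of the set, 47.5 ± 2.12 (SD, n = 4), at the 71.1th percentile of coding genes in the median library. H2-Ob followed with a level of 12.7 ± 0.87 (SD, n = 4) and H2-Oa with 8.39 ± 0.83 (SD, n = 4). The antigen-presenting chains were lower. The level of H2-Eb1 was 6.86 ± 0.87, that of H2-Ab1 3.90 ± 2.23 and that of H2-Aa 2.72 ± 0.61 (SD, n = 4 each). Ciita was the lowest of the set, with a level of 0.30 ± 0.11 (SD, n = 4) and a median percentile of 4.91. The libraries of Cd74, of H2-Ob and of Ciita were each separate from their neighbours in this order, while H2-Oa overlapped with H2-DMb1 (4.52 to 9.31), H2-DMb1 with H2-Eb1, H2-DMa with H2-Ab1, H2-Ab1 with H2-Aa, and H2-Aa with H2-DMb2.

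In IL-6 KO tumor Cd74 was again first, at 26.9 ± 5.03 (SD, n = 4), and H2-Ob second, at 11.1 ± 1.06 (SD, n = 4). The level of Ciita was 0.132 ± 0.081 (SD, n = 4), the last of the set. With the median transcript length in place of the summed exon length, Cd74 and H2-Ob stood at 13.3 and 13.0 in IL-6 KO tumor, and H2-Oa moved to the eighth place in WT tumor. Cd74 and H2-Ob kept the first places and Ciita the last under either length in both tumor groups. In IL-6 KO stroma, H2-DMa (22.6) and H2-DMb1 (19.1) stood above Cd74 (16.8) with the median transcript length.

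In stroma, the level of Cd74 was 48.1 ± 23.9 in WT and 39.5 ± 16.4 in IL-6 KO libraries (SD, n = 4 each), close to the WT tumor mean but spread from 19.6 to 79.3. H2-Eb1 had a level of 20.8 ± 5.59 in WT stroma (SD, n = 4), with each library (15.4 to 26.6) above every tumor library (2.77 to 8.42). Ciita had a level of 2.99 ± 1.32 in WT stroma (SD, n = 4), and its libraries (1.43 to 4.51) lay above all WT tumor libraries (0.134 to 0.369). In IL-6 KO stroma Ciita ran from 0 to 5.0. H2-Ob went the other way, with 3.54 to 11.8 in WT stroma and 11.6 to 13.7 in WT tumor, which met only at the edge. Tumor and stroma were normalized separately, no test was run between them, and the order of the compartments depends on the scaling. With all genes of a table in the denominator, noncoding Rn7s1 included, the mean level of H2-Eb1 was 3.19 in WT tumor and 1.61 in WT stroma, and that of Cd74 22.1 and 3.25, so that both were higher in tumor, while Ciita (0.138 and 0.215) was still higher in stroma. In a sorted bulk fraction, fewer cells of a type and less RNA per cell cannot be told apart.

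**Figure D1:**
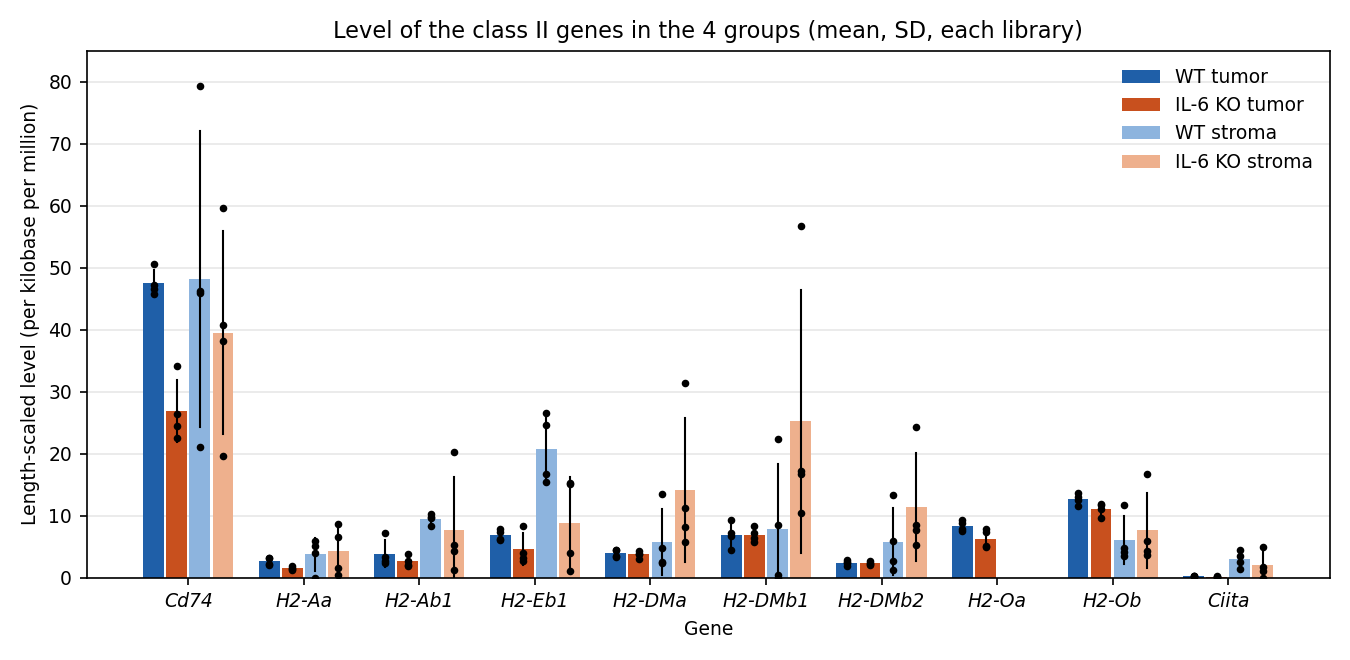
Length-scaled level of the 10 class II genes (y axis) in WT tumor, IL-6 KO tumor, WT stroma and IL-6 KO stroma. Bars are means of 4 libraries, lines the SD and points the libraries. With the summed exon length used here, Cd74 has the highest mean in each group, from 26.9 to 48.1. The stroma points are spread much more widely than the tumor points.

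The fractions were checked against cell type markers before the genotypes were compared. In tumor, all 10 precursor B-cell markers were listed, led by Igll1, Vpreb1 and Pax5, with a summed normalized count of 112699 to 128527 per library. In stroma the erythroid list was the highest, with 51001 to 215584, and the mesenchymal and endothelial niche list summed to 189 to 1691, with Cxcl12, Lepr, Cdh5 and Emcn not analysed. The signal recognition particle RNA Rn7s1 took 3.40% to 6.24% of the summed counts in tumor, 19.2% to 50.1% in WT stroma and 10.9% to 79.0% in IL-6 KO stroma. Between 112 and 218 genes were listed at 0 in a tumor library and between 307 and 1570 in a stroma library. The median residual SD of a gene was 0.21 in tumor and 0.86 in stroma on the log2 scale, so only large differences could be detected in stroma.

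Leukemic cells from WT and IL-6 KO hosts were compared to ask whether host IL-6 bears on class II expression in the tumor. Cd74 was lower in every IL-6 KO library and H2-Aa was lower in every IL-6 KO library by a similar amount, but Cd74 was the only gene of the set that passed the test. H2-Eb1, H2-Ab1, Ciita and H2-Oa had lower means in IL-6 KO hosts with overlapping libraries. The H2-DM genes and H2-Ob differed by little.

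For Cd74, the invariant chain (chromosome 18, 60803848 to 60812652), the normalized counts were 821, 794, 789 and 871 in WT tumor and 496, 623, 425 and 461 in IL-6 KO tumor. The WT libraries lay close together, and all 4 IL-6 KO libraries fell below them. The log2 fold change was -0.72 (standard error, SE, 0.12, 95% interval -0.99 to -0.45, adjusted p = 0.00507 by limma, as for all adjusted values here). Cd74 ranked 436 by p among the 14493 genes tested. It was called in each of 17 alternative fits, with log2 fold changes from -1.01 to -0.65.

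H2-Aa, the alpha chain of the I-A molecule, had normalized counts of 133, 81.6, 121 and 89.2 in WT tumor and 64.1, 80.4, 60.2 and 55.5 in IL-6 KO tumor. The groups did not overlap, although the highest IL-6 KO library and the lowest WT library nearly met. The log2 fold change was -0.68 (SE 0.22, 95% interval -1.17 to -0.20), with an adjusted p of 0.0515, just over the threshold of 0.05. By an exact permutation test of the 8 libraries, two-sided and unadjusted, p was 0.0286 for H2-Aa and for Cd74, the smallest that 4 against 4 allows. H2-Aa was called in 4 of 17 alternatives, and its adjusted p over them ran from 0.0121 with array weights to 0.174 with quantile normalization.

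H2-Ab1, the beta chain that pairs with H2-Aa, had normalized counts of 198, 70.3, 61.8 and 87.1 in WT tumor and 59.5, 108, 78.3 and 56.2 in IL-6 KO tumor. WT library 1 stood far above the other 3, and the remaining libraries of both genotypes were interleaved. The log2 fold change was -0.35 (SE 0.37, 95% interval -1.16 to 0.47, adjusted p = 0.532), and without WT library 1 it was 0.011.

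H2-Eb1, the I-E beta chain, had normalized counts of 129, 154, 117 and 147 in WT tumor and 69.8, 178, 86.3 and 60.1 in IL-6 KO tumor. IL-6 KO library 2 lay above all WT libraries, and the other IL-6 KO libraries lay below all of them. The log2 fold change was -0.60 (SE 0.31, adjusted p = 0.196). Without IL-6 KO library 2 it was -0.92 (adjusted p = 0.0109), and without IL-6 KO library 4 it was -0.41. H2-Eb1 was called in 2 of 17 alternatives, and its adjusted p by limma rose to 0.411 with a library left out. Of the IL-6 KO libraries, library 2 had the highest count of Cd74, H2-Aa, H2-Ab1 and H2-Eb1.

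Ciita had normalized counts of 37.6, 12.9, 32.8 and 34.3 in WT tumor and 11.2, 10.1, 7.89 and 26.8 in IL-6 KO tumor. WT library 2 and IL-6 KO library 4 each lay among the values of the other genotype. The log2 fold change of -1.07 was the largest of the set and the least precise (SE 0.47, 95% interval -2.12 to -0.01, adjusted p = 0.139). In 16 alternatives it stayed below 0, from -1.41 to -0.77, and was not called in any.

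The peptide-loading genes had smaller differences. H2-DMa and H2-DMb1, the alpha and a beta chain of H2-DM, had mean normalized counts of 140 and 120 in WT tumor and 146 and 129 in IL-6 KO tumor. Their log2 fold changes were 0.07 (95% interval -0.31 to 0.44) and 0.13 (95% interval -0.36 to 0.62), and that of H2-DMb2, the other beta chain, was 0.06 (95% interval -0.42 to 0.53), none called (adjusted p from 0.710 to 0.874). These intervals leave out a fall as large as the estimates for Cd74 and H2-Aa. The interval of H2-Aa (-1.17 to -0.20) overlaps all 3 of them, while that of Cd74 (-0.99 to -0.45) does not. A difference between genes was not tested. The signs of the 3 H2-DM genes each turned under at least 2 alternatives. The H2-DMb1 and H2-DMb2 transcripts share 95.7% of 1081 aligned bases, so the split of reads between these genes is uncertain. H2-DMb2 transcripts also matched many other genes over shorter stretches, for example Fnip2 at 95.4% of 151 bases. The effect of these matches on the H2-DMb2 counts was not tested.

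The H2-O genes, whose product restrains H2-DM, were also not called. H2-Oa, the alpha chain, had normalized counts of 119, 133, 123 and 108 in WT tumor and 77.8, 78.6, 116 and 123 in IL-6 KO tumor, with libraries 1 and 2 of IL-6 KO below all WT libraries and the other IL-6 KO libraries among them. Its log2 fold change was -0.32 (SE 0.20, adjusted p = 0.278). H2-Ob, the beta chain, had normalized counts from 639 to 786 in WT and from 575 to 712 in IL-6 KO tumor, and a log2 fold change of -0.09 (95% interval -0.32 to 0.14, adjusted p = 0.589).

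**Figure D2:**
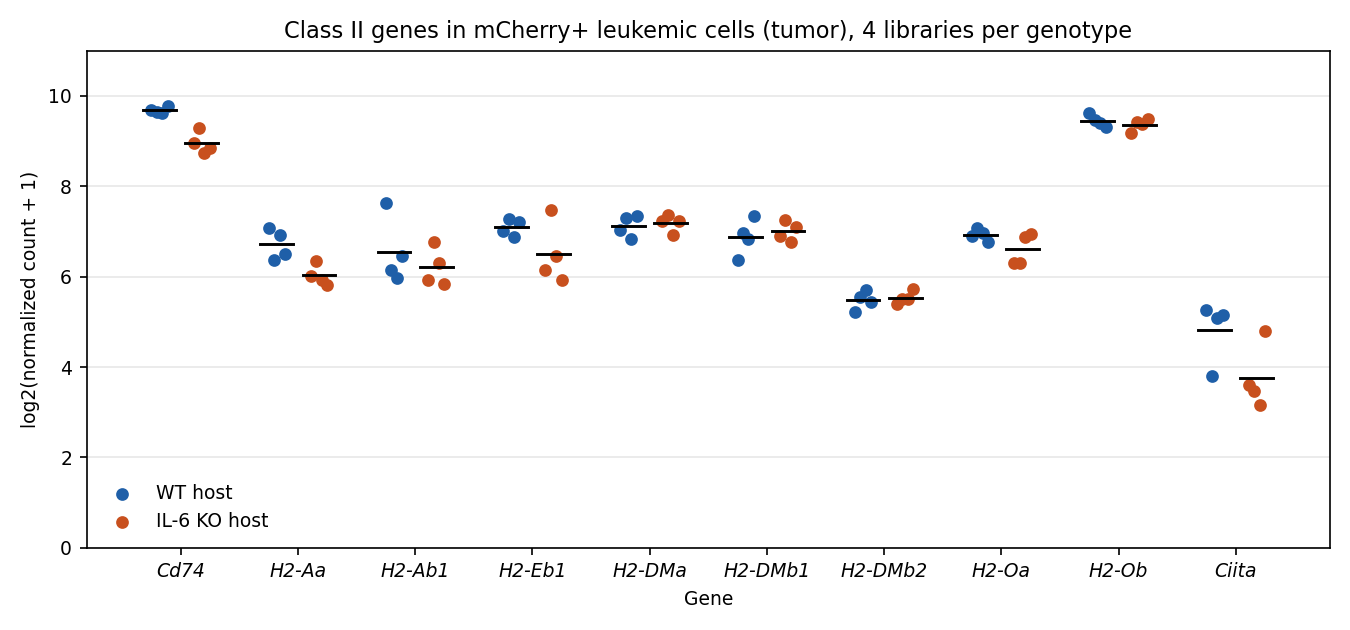
Normalized counts of the 10 class II genes in tumor on a log2(count + 1) axis, with a point for each of 4 libraries per host genotype and a black line at the mean. For Cd74 and H2-Aa all IL-6 KO points lie below all WT points, and the H2-DM genes and H2-Ob overlap.

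Of the 10 genes, 1 was called lower and 0 higher in IL-6 KO tumor at an adjusted p under 0.05. Over all genes, 9.16% were called lower and 10.6% higher (19.8% in either direction), so this count is near the background. The libraries did not overlap, with IL-6 KO lower, for 2 of the 10 genes and for 12% of all genes. With IL-6 KO higher they did not overlap for 0 of the 10 and for 13.6% of all genes, and 7 of the 10 had a log2 fold change below 0, against 50.7% of all genes. The median log2 fold change was -0.33 for the set and -0.01 for all genes.

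Ratios within a library do not depend on its scaling. The length-scaled level of Cd74 over that of H2-DMa was 10.49 to 14.3 in WT tumor and 6.31 to 7.80 in IL-6 KO tumor, with no overlap. Cd74 over H2-Aa was 14 to 22.1 in WT and 16 to 18.8 in IL-6 KO tumor, with the IL-6 KO libraries inside the WT range. These ratios were picked with the fold changes known and were not tested.

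**Figure D3:**
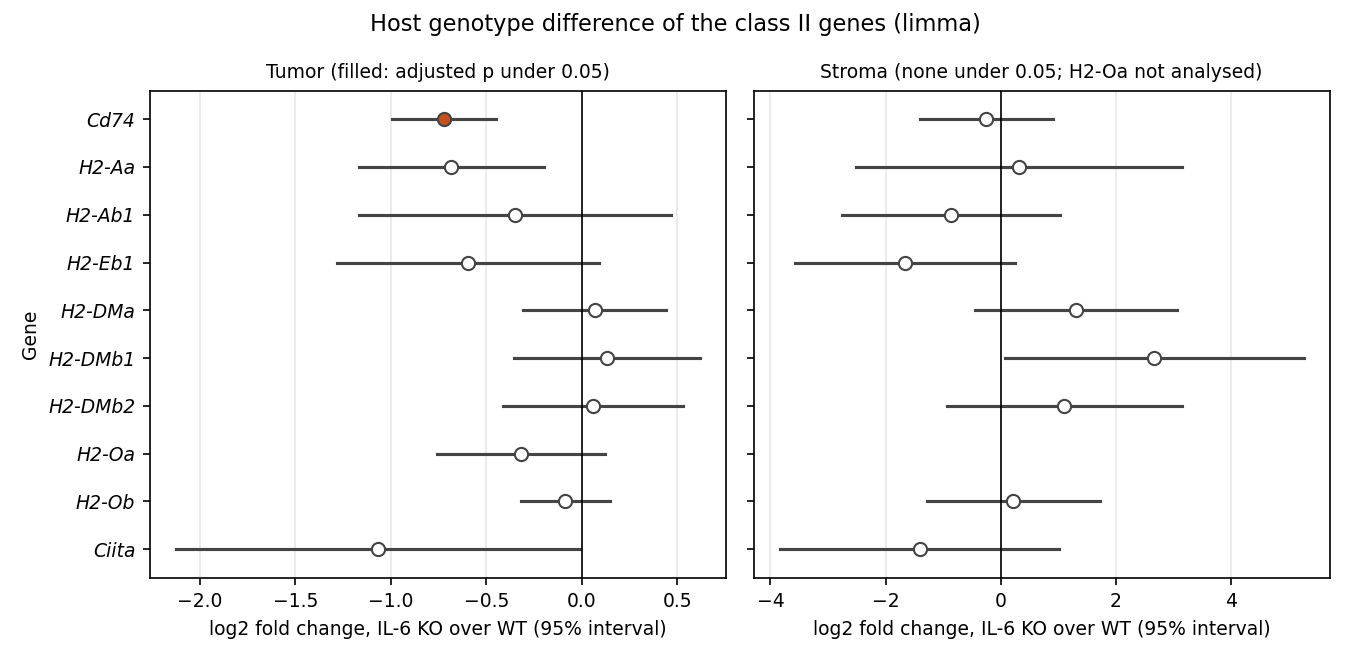
Log2 fold change of each class II gene, IL-6 KO over WT, with its 95% interval from limma, in tumor (left) and stroma (right, on a wider scale). The filled point is Cd74 in tumor at -0.72, the only call, and the stroma intervals span several log2 units.

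Cell type markers were counted in the tumor fraction in the same way. Over all genes, 10.6% were called higher and 9.16% lower in IL-6 KO tumor. Of 13 neutrophil markers, 10 rose in IL-6 KO tumor, and their summed normalized count was 4913 to 5642 in WT and 7822 to 18919 in IL-6 KO tumor. Of 13 monocyte and macrophage markers, Ly6c2, Ccr2 and Cx3cr1 rose and the others were not called. Of the 13, 6 had a log2 fold change above 0 and the rest, with Mertk, Fcgr1 and C1qa among them, one below 0, so that the list's median was -0.063 while its sum was 677 to 952 in WT and 739 to 1639 in IL-6 KO tumor. Among conventional dendritic cell markers, Cd24a (also a B-lineage antigen) and Ccr7 fell, the other 2 tested (Flt3, Itgax) were not called, the list summed to 5933 to 7223 in WT and 4480 to 5507 in IL-6 KO tumor, and Zbtb46, Xcr1, Clec9a, Batf3 and Cd209a were not analysed in this fraction. The 4 tested plasmacytoid dendritic cell markers gave no call and had a median log2 fold change of 0.18. The list summed to 6329 to 7350 in WT and 5410 to 6434 in IL-6 KO tumor, most of it Tcf4 (log2 fold change -0.23, not called). So the sums were lower although the median was above 0, and Siglech was not analysed in this fraction. Of 10 mature B-cell markers, Cd22, Ighd and Cd55 fell (0 to 7 of them over the alternatives), while the summed list, led by Cd79a, was 51053 to 54394 in WT and 53841 to 57502 in IL-6 KO tumor, and the median log2 fold change was -0.39. The precursor B-cell list summed to 112699 to 116002 in WT and 119305 to 128527 in IL-6 KO tumor, with Vpreb1 and Vpreb2 higher and Ebf1 lower. Of the niche markers Col1a2 fell, and the erythroid and the T and NK lists gave no call. Over the alternatives, 7 to 11 neutrophil, 2 to 3 monocyte and macrophage and 1 to 2 conventional dendritic markers were called. The calls were 1 to 4 for precursor B-cell, 0 to 1 for plasmacytoid, 0 to 1 for niche and 0 to 2 for T and NK markers. The part of these markers in the lower Cd74 was not tested.

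The other genes of the pathway were taken from lists of 39 genes, of which 37 were tested in tumor. Of these, 6 rose and 5 fell in IL-6 KO tumor, against 10.6% and 9.16% of all genes, with a median log2 fold change of 0.08. Among the proteins that dock on the promoter boxes, Rfxap, a subunit of RFX, had normalized counts of 741, 902, 670 and 679 in WT and 499, 545, 559 and 463 in IL-6 KO tumor. All 4 IL-6 KO libraries were below the WT libraries, and the log2 fold change was -0.53 (adjusted p = 0.0150). Creb1, which binds beside RFX, fell by 0.33 on the log2 scale (adjusted p = 0.0124). Rfx5, the DNA-binding subunit of RFX, was not called (log2 fold change -0.22, adjusted p = 0.320), nor were Rfxank, Nfya, Nfyb and Nfyc.

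Regulators of Ciita went both ways. Irf8, a factor of B cells and myeloid cells, rose from 4035 to 5269 (log2 fold change 0.38, adjusted p = 0.0115). Ebf1, a B-lineage factor, fell by 0.30 on the log2 scale (adjusted p = 0.0254). Prdm1, the repressor that silences Ciita in plasma cells, had normalized counts of 1.83 to 30.3 in WT and 0 to 12.5 in IL-6 KO tumor and was not called.

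Lysosomal genes moved both ways. Ifi30, the thiol reductase that unfolds antigens, rose from 1811 to 2550 (log2 fold change 0.49, adjusted p = 0.00912), and the cathepsin gene Ctsz rose from 3390 to 4932 (log2 fold change 0.55, adjusted p = 0.00612). Sppl2a, the protease that clears the membrane stub of the invariant chain, fell by 0.41 on the log2 scale (adjusted p = 0.0191). Ctss, the cathepsin that makes the last cut of the invariant chain, had a log2 fold change of 0.08 (adjusted p = 0.468). March1, a ubiquitin ligase that removes class II from the surface, had one of -0.14 (adjusted p = 0.705).

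Within the class II region, H2-Eb2, a neighbour of H2-Eb1, had normalized counts of 23.7, 22.9, 13.7 and 18.4 in WT and 51.8, 31.5, 53.8 and 57.0 in IL-6 KO tumor, all IL-6 KO libraries above all WT libraries, with a log2 fold change of 1.25 (adjusted p = 0.0190). Psmb8, a subunit of the immunoproteasome, rose by a log2 fold change of 0.29 (adjusted p = 0.0213). Mif, a cytokine that binds the Cd74 protein at the cell surface, had one of 0.22 (adjusted p = 0.0484), which lost its call in 9 of 17 alternatives and was -0.16 after the trend with GC content and length was removed. Psmb8, Ebf1 and Mif were named after their values were seen. Ifi30 and Rfxap were called in all 17 alternatives. Creb1, Irf8 and Ctsz lost the call only after removal of that trend, and Sppl2a, Psmb8, Ebf1 and H2-Eb2 lost it under 3 to 6 alternatives each.

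**Figure D4:**
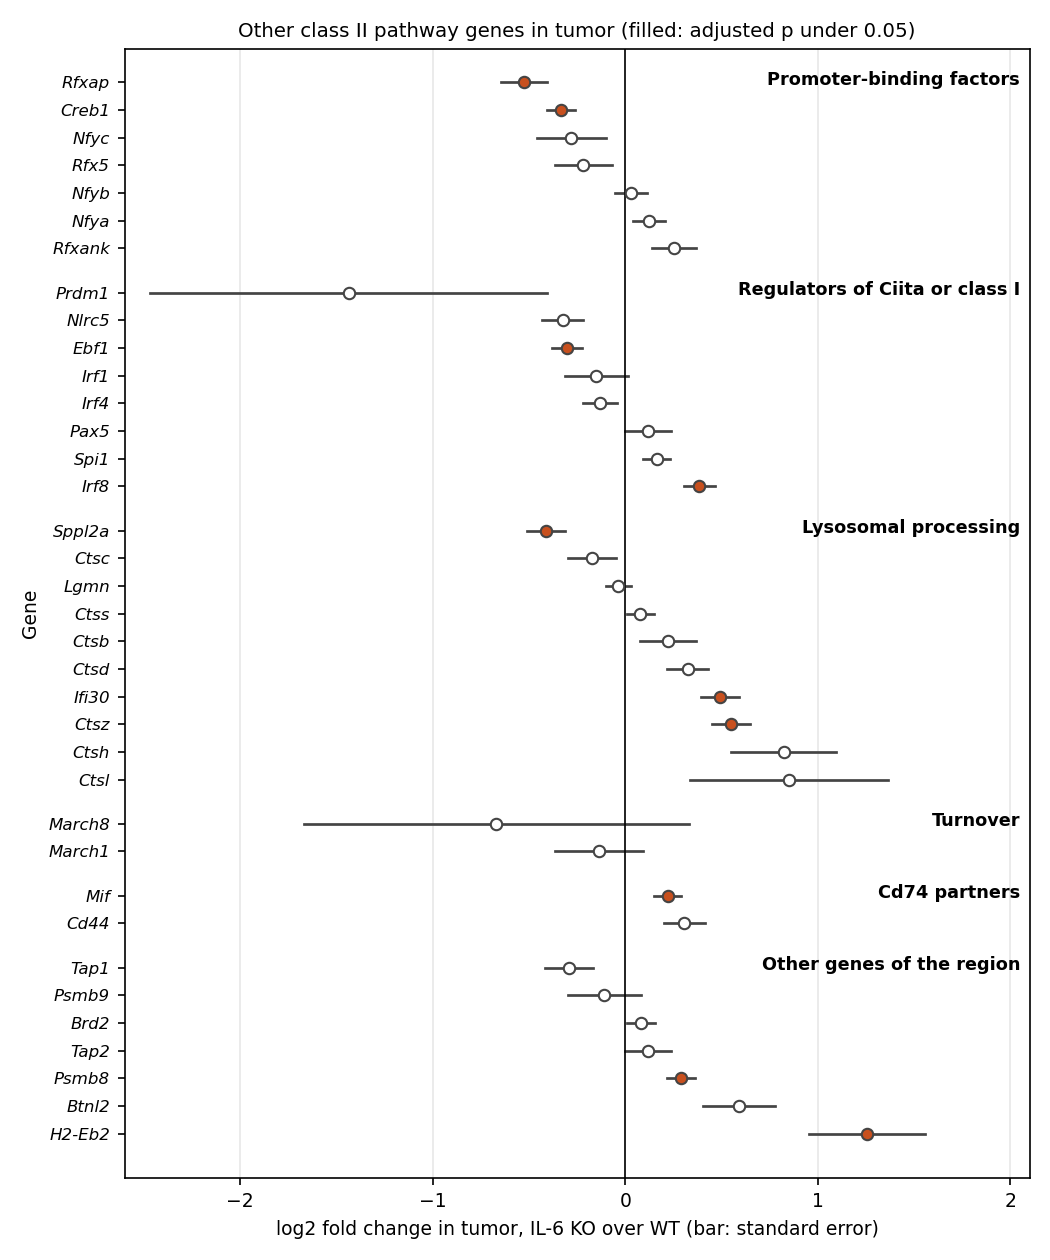
Log2 fold change (x axis, IL-6 KO over WT) of 36 other pathway genes tested in tumor, grouped by role, with the standard error as a bar. Filled points have an adjusted p under 0.05: 6 lie above 0, among them H2-Eb2 at 1.25, and 4 below 0, among them Rfxap at -0.53.

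Marrow cells without mCherry were compared in the same way. None of the 9 class II genes differed between WT and IL-6 KO stroma at an adjusted p under 0.05, where 1 of 12202 genes was called (0.0082%). At an unadjusted limma p under 0.05 there was 1 of the 9 (H2-DMb1) and 9.15% of all genes, and by the exact permutation test there were 0 of 9. The set's median log2 fold change was 0.22, with 4 of 9 below 0, against -0.01 and 50.6% below 0 over all genes. No class II gene had separate genotypes in stroma, whereas 3.25% of all genes were lower and 2.54% higher in IL-6 KO without overlap.

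Cd74 had normalized counts of 39.8, 95.3, 152 and 100 in WT stroma, against 59.0, 88.2, 47.8 and 116 in IL-6 KO stroma. The libraries were interleaved, and the log2 fold change was -0.25 (95% interval -1.40 to 0.91, adjusted p = 0.915), an interval that holds both no difference and the value seen in tumor. Without WT library 3 it was 0.02.

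H2-Eb1 had normalized counts of 36.5, 58.9, 34.1 and 67.0 in WT stroma, against 2.06, 37.8, 43.2 and 9.01 in IL-6 KO stroma, with IL-6 KO libraries 1 and 4 far below the rest (log2 fold change -1.67, standard error 0.88, adjusted p = 0.583, and -0.90 without library 1). H2-Ab1 had normalized counts of 27.9, 31.1, 24.2 and 34.2 in WT stroma, against 2.91, 67.2, 19.6 and 12.8 in IL-6 KO stroma. The WT libraries were alike and the IL-6 KO libraries ran from below to above them (log2 fold change -0.86, adjusted p = 0.791). Leaving out IL-6 KO library 1 gave -0.17 and leaving out library 2 gave -1.54. H2-Aa was listed at 0 in WT library 1, at 17.5 to 27.4 in the other WT libraries and at 1.59, 7.95, 36.0 and 38.0 in IL-6 KO stroma, and the sign of its log2 fold change of 0.32 (adjusted p = 0.964) turned in 4 of 16 alternatives.

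H2-DMb1 was listed at 0 in WT library 1 and had 46.3, 0.98 and 18.4 in the other WT libraries, against 87.6, 36.2, 42.1 and 20.2 in IL-6 KO stroma. The log2 fold change was 2.67 (SE 1.20, 95% interval 0.08 to 5.26, adjusted p = 0.535), and 1.77 without WT library 1. H2-DMa and H2-DMb2 had log2 fold changes of 1.31 and 1.11 with 95% intervals that span 0 (adjusted p = 0.639 and 0.741). Without IL-6 KO library 3 that of H2-DMa was 0.74, and H2-DMb2 had 0.59 without WT library 1 and 0.69 without IL-6 KO library 4. So the 3 H2-DM genes had higher means in IL-6 KO stroma and kept that sign in 16 alternatives each, and none was called in any.

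H2-Ob had normalized counts of 29.3, 23.4, 25.1 and 82.0 in WT stroma, against 29.3, 116, 29.4 and 26.7 in IL-6 KO stroma. A single library of each genotype stood far above the other 6, which ran from 23.4 to 29.4 (log2 fold change 0.22, adjusted p = 0.951). Ciita had normalized counts of 15.3, 41.1, 48.9 and 30.9 in WT stroma. Among IL-6 KO libraries, number 1 listed Ciita at 0 and the others had 22.3, 15.9 and 55.1 (log2 fold change -1.41, 95% interval -3.84 to 1.02, adjusted p = 0.724). Without IL-6 KO library 1 it was -0.21, and without library 4 it was -2.14.

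**Figure D5:**
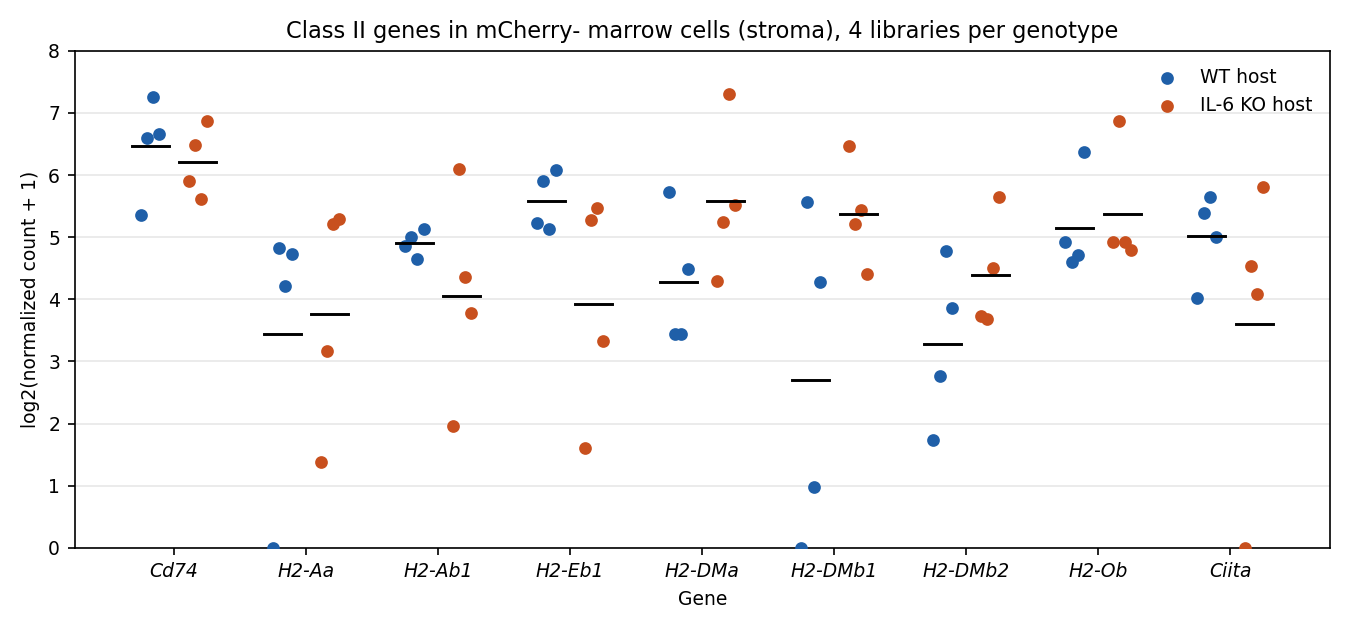
Normalized counts of the 9 class II genes listed in stroma on a log2(count + 1) axis, with a point for each of 4 libraries per host genotype and a black line at the mean. WT and IL-6 KO points overlap for every gene, and points at 0 belong to H2-Aa, H2-DMb1 and Ciita.

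The marker sums of cells that carry class II, and of neutrophils, also varied between the stroma libraries. No marker of any list was called, here or under any alternative. The mature B-cell list summed to 663 to 1041 in WT and 386 to 593 in IL-6 KO stroma, so that the genotypes did not overlap. The conventional dendritic cell list, most of it Cd24a, summed to 4521 to 7575 in WT and 2564 to 5029 in IL-6 KO stroma, and the monocyte and macrophage list to 296 to 685 and 571 to 1042. The plasmacytoid dendritic list, most of it Tcf4 and Runx2, summed to 634 to 761 and 522 to 1098. Within it Siglech had 53.4 to 82.1 in WT and 3.48 to 42.0 in IL-6 KO stroma (log2 fold change -1.99, adjusted p = 0.461 by limma). Of the 4 tested markers of that list, 2 had a log2 fold change above 0. The neutrophil list summed to 8036 to 15464 and 8283 to 33886. Dendritic Ccr7 was at 0 in 5 of 8 stroma libraries and Clec9a in 2. IL-6 KO library 1, the lowest of its genotype for H2-Aa, H2-Ab1, H2-Eb1 and Ciita, also had the lowest mature B-cell sum and the most genes listed at 0 (1570). The same library had the lowest conventional dendritic sum (2564) and the highest neutrophil sum (33886). It also had the highest H2-DMb1 count of the 8 stroma libraries (87.6), and for Cd74 it stood at 59.0, above IL-6 KO library 3 (47.8). The part of these cells in the stroma values was not tested.

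Of the other pathway genes, 36 were tested in stroma and none was called by limma (nor under any alternative), with a median log2 fold change of 0.01. Rfx5, Ctss, Ifi30, March1 and Prdm1 had log2 fold changes of 0.53, -0.03, -0.68, -0.34 and -0.80 there, with adjusted p from 0.733 to 0.993.

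Whether host genotype acted differently on the set in tumor and stroma was tested as an interaction over all 16 libraries. None of the 9 genes passed (adjusted p from 0.572 to 0.976), and none had an unadjusted p under 0.05, where 8.76% of all genes did and 1 of 10887 was called (0.00919%). For Cd74 the difference between the log2 fold changes, tumor minus stroma, was -0.47 (SE 0.55, adjusted p = 0.860). Thus the call for Cd74 in tumor and the lack of one in stroma do not show that the compartments differ.

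Genes with a like pattern were sought by the root mean square (RMS) difference from the mean log2 profile of Cd74, H2-Aa, H2-Ab1 and H2-Eb1 over the 8 libraries of a table. In tumor, among 11230 genes with a mean of at least 50, the nearest were Gnasas1, U2af1l4, Vmp1, Naa35 and Ahsa2, with RMS differences of 0.15 to 0.16. Those of H2-Aa and Cd74 themselves (0.20 each), H2-Eb1 (0.27) and H2-Ab1 (0.35) were larger. In stroma, among 8076 genes, the nearest were Fbxo42, Mta3, Coq9, Ndor1 and Mdm4 (0.17 to 0.37). There Cd74, H2-Aa, H2-Ab1 and H2-Eb1 themselves differed from their mean profile by 0.73 to 1.25, so that profile described none of them closely. These likenesses are a description over 8 libraries that share normalization and host genotype.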

How the data were processed

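Leukemic (mCherry+) and other marrow (mCherry-) cells were sequenced in 4 libraries per host genotype, single-end after rRNA depletion, and grouped by the labels. According to the methods and labels, the authors used mm10, salmon 1.3.0 and DESeq2 1.28.1 and deposited normalized counts, a scaled signal per gene for each compartment. Depth per library is not given by these values and whole reads could not be recovered, so no counting interval was computed. The authors' DESeq2 results (means, fold changes and p-values) were not used.

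Normalized counts were tested with limma 3.58.1 (R 4.3.3) as log2(normalized count + 1), IL-6 KO against WT, in genes with a mean over 10, two-sided, with Benjamini-Hochberg adjustment over all genes and a threshold of 0.05. The pseudocount shrinks folds of low genes. Compartments were fitted separately, and the interaction with array weights per compartment. Tests were tried on simulated data first. Positions came from GENCODE vM21 (13338 of 13344 and 15069 of 15080 identifiers found) and shared transcripts from BLAST 2.17.0. H2-DMa overlaps Brd2, Ciita overlaps Dexi and H2-Oa overlaps BC051537 on the opposite strand, and the strand setting of the counting is not given in the sources used here.

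The set and the lists, written from general knowledge, were chosen with earlier results of these data known. Named genes were all 10 of the set, up to 8 called pathway genes per table by smallest p, Rfx5, Ctss, Ifi30, March1 and Prdm1, up to 3 markers of a list by mean, and the 5 nearest profiles. Other named genes were chosen after their values were seen. A called pathway gene and a marker are counted but not reported by name here. Alternatives were pseudocounts of 0.5 and 5, no filter or a mean over 50, quantile normalization, median centring, array weights, a block on replicate numbers, omission of each library, the median transcript length or all genes in the denominator of the level and, added after the values were seen, removal of the trend with GC content and length (loess, span 0.3).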

Additional observations from a re-analysis of the deposited data

Results flagged for a closer look

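H2-Ob in stroma had a library far from the other 3 of its group in each genotype, by Dixon's criterion for 4 values. In WT stroma library 4 had a normalized count of 82.0, where the others had 23.4 to 29.3, and in IL-6 KO stroma library 2 had 115.6, where the others had 26.7 to 29.4. These were 2 of 38 groups of class II values examined, and chance gives about 1 in 20.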

How the results depend on the processing

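The call for Cd74 in tumor held in each of its 17 alternatives. The number of class II genes called in tumor was 2 after median centring, 3 with array weights (Cd74, H2-Aa and H2-Eb1) and 1 to 3 with a library left out (2 without WT library 2 and 3 without IL-6 KO library 2), and that of pathway genes was 17 with array weights, 7 after removal of the GC trend and 6 (without IL-6 KO library 1) to 15 with a library left out. Genes called in tumor numbered 1572 to 3328 with a library left out and 1710 after removal of the GC trend. In stroma they numbered 4 with array weights, 2 after removal of the GC trend and 1 to 3 with a library left out, and for the interaction 3 with equal weights and 0 to 8 with a library left out, in no case with a class II gene.

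The denominator of the length-scaled level turned the order of tumor and stroma for Cd74 and H2-Eb1. Signs turned for genes that were not called, and for Mif. With a library left out, log2 fold changes in stroma ran from -0.62 to 0.016 for Cd74, -0.83 to 1.11 for H2-Aa, -0.27 to 0.63 for H2-Ob, -0.35 to 0.41 for Ctss, -0.84 to 0.048 for March1 and -0.068 to 0.87 for Rfx5. In tumor they ran from -0.54 to 0.011 for H2-Ab1, -0.030 to 0.15 for H2-DMa, -0.042 to 0.28 for H2-DMb1 and -0.029 to 0.13 for H2-DMb2. H2-Aa in stroma was -0.53 with array weights. With the GC trend removed, Ctss in stroma was 0.067, and in tumor H2-DMa, H2-DMb1, H2-DMb2 and Mif were -0.17, -0.073, -0.11 and -0.16 and March1 was 0.032. March1 was 0.11 in tumor after quantile normalization. The cause was not tested.

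Within a compartment, same-numbered WT and IL-6 KO libraries did not deviate together (correlations of -0.029 to 0.13, none the best match of its library). This check gave no sign of a pairing of WT with IL-6 KO libraries by number, but it cannot exclude one. Tumor was not compared with stroma in it, so a pairing by animal was not tested. The replicate block gave 2230 genes called in tumor and 1 in stroma, with 1 and 0 class II genes, 7 and 0 pathway genes, and 1 gene for the interaction. H2-Eb2, Sppl2a, Psmb8 and Mif had adjusted p values of 0.0510 to 0.0546 under the block. Tests on whole reads were not run.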
